A study of Mus musculus with 12 samples.

Results

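The 10 genes described here encode integrin subunits that bind fibronectin, laminin or latent TGF-β rather than collagen. They are the α subunits Itga3, Itga4, Itga5, Itga6, Itga7, Itga8 and Itgav and the β subunits Itgb3, Itgb5 and Itgb8, chosen by symbol from the 25230 genes counted in each library. The data were RNA-seq read counts from 12 libraries of mouse kidney mesangial cells (MMC), primary cells of C57BL/6 background. Genotype and treatment were crossed in 4 groups of 3 libraries: wild-type cells (WT) and the CRISPR-Cas9-edited line lncMGC-KO5 (KO), each serum-depleted (SD) or serum-depleted and treated with TGF-β at 10 ng/ml (TGF) for 24 h. The long non-coding RNA lncMGC hosts a cluster of microRNAs that TGF-β induces in these cells. The KO is a single line. The study describes the samples of a group as independent without saying whether they were cultures or mice, so p-values measure only the spread between these libraries.

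An integrin is a pair of an α and a β subunit that spans the membrane, binds a matrix protein outside the cell and couples it through talin and kindlin to actin inside. Itga5 pairs with Itgb1 as the main fibronectin receptor. Itgav pairs with Itgb3, Itgb5 or Itgb8 (or Itgb1) and binds the RGD motif of vitronectin, fibronectin and the latency peptide that keeps TGF-β inactive. Itga3, Itga6 and Itga7 are laminin-binding α subunits that pair with Itgb1. In the glomerulus, mesangial cells hold the capillary loops together through such receptors, and Itga8 is known as a mesangial integrin.

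Gene counts per library ran from 19898050 to 22827706, and 8 of the 10 genes reached an RPKM above 1 (reads scaled to exon length and to library size, the latter adjusted by edgeR's TMM) in at least 1 library. Itga4 and Itga8 did not, so their tests were read from a fit with no such limit (18565 genes) and not from the fit of the 11404 genes above it. Itgb8 passed the limit only in the SD libraries and Itga7 in all but those of WT-SD, so that counts over the 8 tested genes are descriptions. Levels below are CPM (counts scaled to the TMM-adjusted library size), and p-values come from the quasi-likelihood test of edgeR, adjusted over the whole fit by the Benjamini-Hochberg method. For 1 gene, the smallest p that an exact permutation test can give with 3 libraries against 3 is 0.1. No counted gene carries the name lncMGC, so the deletion was not checked. Mirg, which overlaps its 3′ part, lay higher in the KO-SD libraries, at 3.67 ± 0.548 CPM, than in WT-SD, at 2.33 ± 0.309 CPM (log2 difference 0.68, edgeR adjusted p = 6.51e-05). KO below means libraries so labelled. The mesangial and smooth muscle markers Pdgfrb, Acta2, Des, Tagln, Myl9, Cnn1, Cspg4 and Gata3 were detected and Ren1 was at 0. Des was low, at 7.68 ± 0.950 CPM in WT-SD and 0.529 ± 0.0234 in KO-SD. The summed level of these markers was 2663 to 2814 CPM in WT-SD, 5985 to 6131 in WT-TGF, 5197 to 5370.3 in KO-SD and 11539 to 11620.2 in KO-TGF, and its part in the results below was not tested. The endothelial markers summed to 33.0 to 33.4 CPM in WT-SD, 20.1 to 22.5 in WT-TGF, 17.2 to 18.4 in KO-SD and 9.23 to 10.8 in KO-TGF. Nearly all of this was Ehd3, at 32.7 ± 0.296, 20.7 ± 1.42, 17.1 ± 0.754 and 9.69 ± 0.897 CPM in the same order. Pecam1, Cdh5, Kdr, Tek, Emcn and Tie1 each had group means of at most 0.38 CPM. The share of reads assigned to no gene was 15.2 to 15.4% in WT-SD, 12.2 to 12.5% in WT-TGF, 12.7 to 13.4% in KO-SD and 10.3 to 10.9% in KO-TGF, and its part in the results was not tested. KO-SD library 1 stood apart from its group, with chi-square values of its counts, divided by their degrees of freedom, of 5.20 and 4.91 against the other 2 libraries, which gave 2.41 between them, and no pair of another group exceeded 2.95. Without it, the calls of the 10 genes changed only for Itgav, as given with that gene, and for the Itgb5 response, which became lower in KO (log2 difference -0.085, edgeR adjusted p = 0.0267). On the mm10 build, Itga4, Itga6, Itga8 and Itgav lie on chromosome 2, Itga3 and Itgb3 on chromosome 11, Itga7 on chromosome 10, Itga5 on chromosome 15, Itgb5 on chromosome 16 and Itgb8 on chromosome 12, the chromosome that also holds Mirg.

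Per length of exon, the β subunit Itgb5, a vitronectin receptor subunit, led in serum-depleted WT cells and the α subunit Itga5 led after TGF-β. In WT-SD, Itgb5 stood at 194 ± 1.13 RPKM (SD, n = 3), followed by Itgav at 39.9 ± 0.999, Itga5 at 35.0 ± 1.72, Itga3 at 25.1 ± 0.445 and Itgb3 at 11.4 ± 0.440. The other 5 were below 3: Itga6 at 2.82 ± 0.132 RPKM, Itgb8 at 1.27 ± 0.162, Itga7 at 0.897 ± 0.0743, Itga8 at 0.394 ± 0.0338 and Itga4 at 0.223 ± 0.0237. In WT-TGF the order at the top was Itga5 at 242 ± 6.29 RPKM, Itgb5 at 224 ± 3.90, Itgav at 59.2 ± 2.32, Itgb3 at 47.1 ± 1.51 and Itga3 at 22.2 ± 0.494.

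KO cells held the same leading genes. In KO-SD the order was Itgb5 at 147 ± 2.61 RPKM, Itga5 at 47.9 ± 1.03, Itgav at 39.2 ± 2.18, Itga3 at 16.6 ± 0.978 and Itgb3 at 8.81 ± 0.413, so that Itga5 stood above Itgav there and below it in WT-SD. In KO-TGF, Itga5 reached 404 ± 1.80 RPKM against 163 ± 1.96 for Itgb5, 62.2 ± 1.06 for Itgav, 35.5 ± 0.410 for Itgb3 and 11.7 ± 0.235 for Itga3. Neighbours in these orders were separated in every library of a group, with 1 exception: Itga4 at 0.453 ± 0.0493 and Itga8 at 0.414 ± 0.0473 RPKM overlapped in KO-SD. RPKM assumes that all annotated exons of a gene are used, and Itga4 has the longest exon model of the set at 13978 bases.

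**Figure D1:**
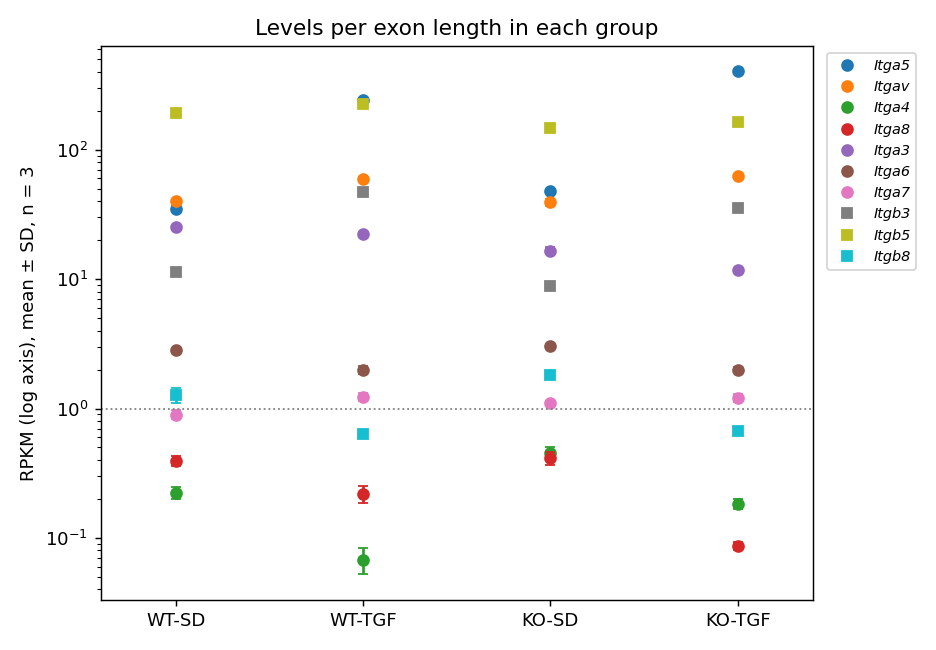
Level per length (RPKM, log axis) of the 10 integrin genes in each group, as means of 3 libraries with bars for the SD (circles, α subunits, squares, β subunits) and a dotted line at 1 RPKM. Itgb5 stands highest in both SD groups and Itga5 in both TGF groups, while Itga4 and Itga8 stay below 1 RPKM in all 12 libraries.

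TGF-β changed most of these genes in both genotypes, and the changes ran in both directions. In WT, 8 of the 8 tested genes were called at an FDR below 5%, 5 higher (Itga5, Itgb3, Itgav, Itga7, Itgb5) and 3 lower (Itga3, Itga6, Itgb8), where 72.5% of all tested genes were called, 35.9% higher and 36.6% lower. In KO, 7 of 8 were called, 4 higher and 3 lower, where the share of all tested genes was 74%, 35% higher and 39.1% lower. The median log2 fold change of the 8 was 0.34 in WT and 0.14 in KO, beside -0.01 and -0.02 over all genes tested. With Itga4 and Itga8 included, the median of the 10 was 0.02 in WT and -0.18 in KO. Past a fold change of 2, 2 of 8 (Itga5, Itgb3) were higher in WT, where 4.19% of all tested genes were, and 2 were higher and 1 lower (Itgb8) in KO, where 4.4% of all were higher and 9.04% lower. In the fit with no RPKM limit, where 25.8% of genes were lower in WT and 28.5% in KO, Itga4 and Itga8 were lower in both genotypes. The 2 responses are described gene by gene below and share no libraries.

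Among the 8 tested genes, the widest difference between the genotypes was a log2 fold change of -0.92 (Itga3 under TGF-β), against 3.08 for TGF-β (Itga5 in KO), but Itga3 and Itgb5 differed more between genotypes than with TGF-β in size. In SD, 6 of the 8 tested genes were called between KO and WT, 3 higher (Itga5, Itga7, Itgb8) and 3 lower (Itga3, Itgb3, Itgb5), where 55.9% of all tested genes were called, 30.6% higher and 25.2% lower. Under TGF-β, 5 of 8 were called, 2 higher (Itga5, Itgav) and 3 lower (Itga3, Itgb3, Itgb5), where 55.2% were, 27.3% higher and 27.9% lower. Itga4 was higher in KO in both conditions and Itga8 lower under TGF-β, in the fit with no RPKM limit, where 23.4% of genes were higher in SD and 18.7% higher and 20.3% lower under TGF-β. The response to TGF-β itself differed between the genotypes for 3 of the 8, Itga5, Itga3 and Itgb8, 1 higher (Itga5) and 2 lower, where 25.4% of all tested genes were called, 8.78% higher and 16.6% lower. It also differed for Itga8, lower in KO, in the fit with no RPKM limit, where 12.5% of genes were lower. The comparisons between genotypes share libraries with those of TGF-β and are not independent of them.

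**Figure D2:**
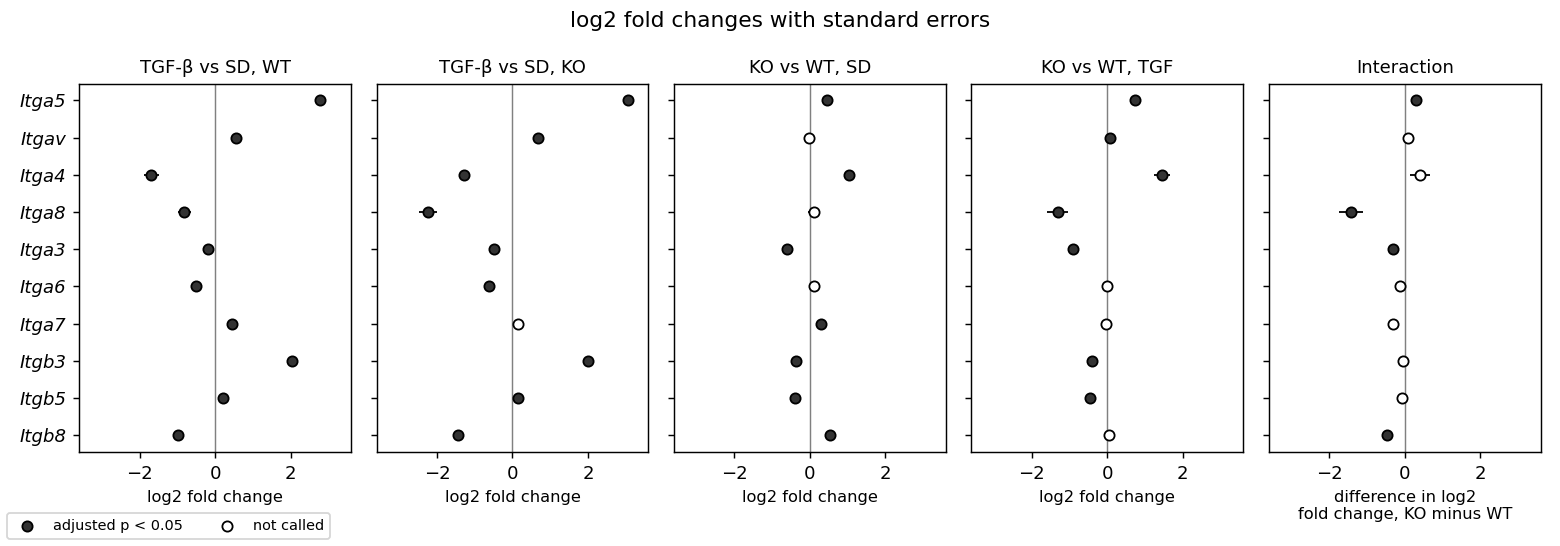
Log2 fold change of each integrin gene in 5 comparisons, with bars for the standard error; the last panel is the response to TGF-β in KO minus that in WT, and filled points are called at an adjusted p below 0.05. Itga5 and Itgb3 lie farthest right in both TGF-β panels and Itga4, Itga8 and Itgb8 farthest left, while with library-size scaling Itgb5 changed side in the KO panel and Itgav and Itgb8 in the panel of KO against WT under TGF-β.

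Itga5, the fibronectin receptor α subunit, changed most of the set. It lies on the minus strand of chromosome 15 (mm10, 103344286 to 103366791). It had 168, 167 and 182 CPM in the WT-SD libraries and 1210.2, 1156 and 1209 in WT-TGF, against 230.4, 239.8 and 238 in KO-SD and 2001, 1983 and 1989.9 in KO-TGF. All 4 groups were separate, WT-SD lowest and KO-TGF highest. TGF-β raised Itga5 6.91-fold in WT (log2 fold change 2.79, standard error 0.0289, edgeR adjusted p = 1.33e-34) and 8.43-fold in KO (log2 fold change 3.08, standard error 0.0287, adjusted p = 5.07e-36). KO exceeded WT by 1.37 times in SD (edgeR adjusted p = 2.24e-14) and by 1.67 times under TGF-β (adjusted p = 6.56e-21). The response was larger in KO by 0.29 on the log2 scale (standard error 0.0390, edgeR adjusted p = 8.82e-07). In bulk RNA, more cells that express a gene and more RNA per cell cannot be told apart. The summed mesangial and smooth muscle markers given above were also lowest in WT-SD and highest in KO-TGF. Most of that sum was Acta2, at 6279 ± 32.9 CPM in KO-TGF, and Tagln, at 3909 ± 23.6. Both had these lowest and highest groups, as had Myl9, Cnn1, Cspg4 and Gata3. Pdgfrb was highest in WT-TGF, at 383 ± 1.47 CPM against 358 ± 4.72 in KO-TGF. Des ran the other way, from 7.68 ± 0.950 CPM in WT-SD to 0.247 ± 0.107 in KO-TGF.

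The stretch of 250 bases just upstream of the RefSeq start of Itga5 (GRCm38, chr15:103366792-103367041, minus strand, shown 5′ to 3′) is printed because this gene rose most, beside that of Itgb8 (chr12:119238277-119238526, minus strand), which fell most of the 8 tested genes. Capitals mark matches, on either strand, to the SMAD box (CAGAC or GTCTG), the AP-1 element (TGANTCA) or the GC box (GGGCGG or CCGCCC).
Itga5: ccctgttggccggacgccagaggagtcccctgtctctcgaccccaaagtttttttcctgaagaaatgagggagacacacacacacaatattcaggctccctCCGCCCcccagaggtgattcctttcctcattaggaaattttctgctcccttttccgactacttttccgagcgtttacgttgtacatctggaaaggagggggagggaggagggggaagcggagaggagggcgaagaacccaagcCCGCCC
Itgb8: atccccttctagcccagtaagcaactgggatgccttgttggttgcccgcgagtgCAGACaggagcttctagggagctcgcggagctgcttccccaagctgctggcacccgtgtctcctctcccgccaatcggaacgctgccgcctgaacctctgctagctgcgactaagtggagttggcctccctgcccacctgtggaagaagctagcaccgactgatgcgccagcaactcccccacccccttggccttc
The Itga5 window held 2 GC boxes, with first bases 149 and 6 bases before the start, and no SMAD box or AP-1 element. The Itgb8 window held 1 SMAD box, at 196 bases before the start, and neither of the others. Of all 32851 RefSeq windows of this length, 42.2% held a SMAD box, 6.75% an AP-1 element and 32.7% a GC box. Windows were given for 7 of the 10 genes (8 windows, 2 of them for Itga3 and none for Itga6, Itga7 or Itgb3). A SMAD box occurred in those of Itga3, Itga4 and Itgb8, a GC box in those of Itga3, Itga4, Itga5 and Itgb5, neither in those of Itgav and Itga8, and an AP-1 element in none of these 8 windows. Starts are as RefSeq gives them. Bases shortly after the start occurred in 0 of 4 GENCODE transcripts for Itga5 and 0 of 7 for Itga8. The Itgav window, from 83724147, lies inside the gene (83722303 to 83806917). The Itga3 window from 95069199 also lies inside its gene (95044475 to 95076844). Such matches describe letters and not sites.

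Itgav, the α subunit shared by the vitronectin receptors and the integrins that bind latent TGF-β, rose with TGF-β in both genotypes. It had 440.0, 419 and 428 CPM in WT-SD and 655, 607 and 644 in WT-TGF, 447, 402 and 414 in KO-SD and 672, 678 and 656 in KO-TGF. Every TGF library exceeded every SD library. The rise was 1.48-fold in WT (log2 fold change 0.57, edgeR adjusted p = 2.35e-16) and 1.59-fold in KO (log2 fold change 0.67, adjusted p = 3.33e-18). In SD, the 2 genotypes overlapped (log2 fold change -0.03, standard error 0.0316), and without KO-SD library 1 the value was -0.072 and was called (edgeR adjusted p = 0.0201). The log2 difference of the responses, KO minus WT, was 0.10 (edgeR adjusted p = 0.101), and without that library it was 0.14 and was called (adjusted p = 0.00151). Under TGF-β the KO libraries all lay just above those of WT, with a log2 fold change of 0.07 (standard error 0.0310, edgeR adjusted p = 0.0455). That call was lost without any of 6 libraries taken singly (each WT-SD library, WT-TGF 2 or 3, or KO-TGF 2, adjusted p of 0.0526 to 0.303) and with upper-quartile scaling, and with library-size scaling the value was -0.047.

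Itgb3, the β subunit of the vitronectin receptor that pairs with Itgav, was the other gene with a rise of more than 2-fold. It lies on chromosome 11 from 104608000 to 104670476. It had 64.8, 70.0 and 67.4 CPM in WT-SD and 279, 268 and 286 in WT-TGF, against 51.4, 49.97 and 54.7 in KO-SD and 207, 209 and 212 in KO-TGF. The groups were separate, with WT above KO in both conditions. TGF-β raised it 4.12-fold in WT (log2 fold change 2.04, standard error 0.0332, edgeR adjusted p = 6.08e-30) and 4.02-fold in KO (log2 fold change 2.01, standard error 0.0354, adjusted p = 3.90e-29). The log2 difference of the responses was -0.03 (standard error 0.0494, edgeR adjusted p = 0.674). KO was lower than WT by log2 fold changes of -0.37 in SD (edgeR adjusted p = 1.41e-09) and -0.41 under TGF-β (adjusted p = 5.35e-13).

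Itgb5, another partner of Itgav, was the most abundant β subunit of the 3 in all groups and changed little with TGF-β. It had 693, 685 and 689 CPM in WT-SD and 782, 801 and 809 in WT-TGF, 513, 528 and 530.4 in KO-SD and 571, 583 and 583 in KO-TGF. No 2 groups overlapped, and the 6 KO libraries were the 6 lowest. The log2 fold change with TGF-β was 0.21 in WT (edgeR adjusted p = 9.70e-10) and 0.14 in KO (adjusted p = 1.50e-06), but with library-size scaling the WT value was 0.056 and the KO value turned to -0.058 and was called in that direction (adjusted p = 0.0230). Between genotypes Itgb5 was lower in KO by log2 fold changes of -0.39 in SD (edgeR adjusted p = 1.38e-15) and -0.46 under TGF-β (adjusted p = 2.84e-17).

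Itgb8, the β subunit whose pairing with Itgav is known for activating latent TGF-β, ran the other way from Itgb3. It lies on chromosome 12 from 119162803 to 119238276, on the minus strand. It had 14.6, 11.99 and 15.4 CPM in WT-SD and 19.8, 19.2 and 21.1 in KO-SD, and 7.13, 7.31 and 6.76 in WT-TGF and 7.17, 7.85 and 7.03 in KO-TGF. The SD libraries of KO stood above those of WT, while the TGF libraries of the 2 genotypes overlapped. With TGF-β, Itgb8 gave a log2 fold change of -0.98 in WT (edgeR adjusted p = 6.93e-11) and -1.45 in KO (adjusted p = 2.54e-15). KO exceeded WT by 1.43-fold in SD (log2 fold change 0.52, edgeR adjusted p = 6.73e-07), and under TGF-β the log2 fold change was 0.05 (standard error 0.109, adjusted p = 0.695), with a negative sign under library-size scaling. The fall was larger in KO by a log2 difference of -0.47 (standard error 0.132, edgeR adjusted p = 0.00848).

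**Figure D3:**
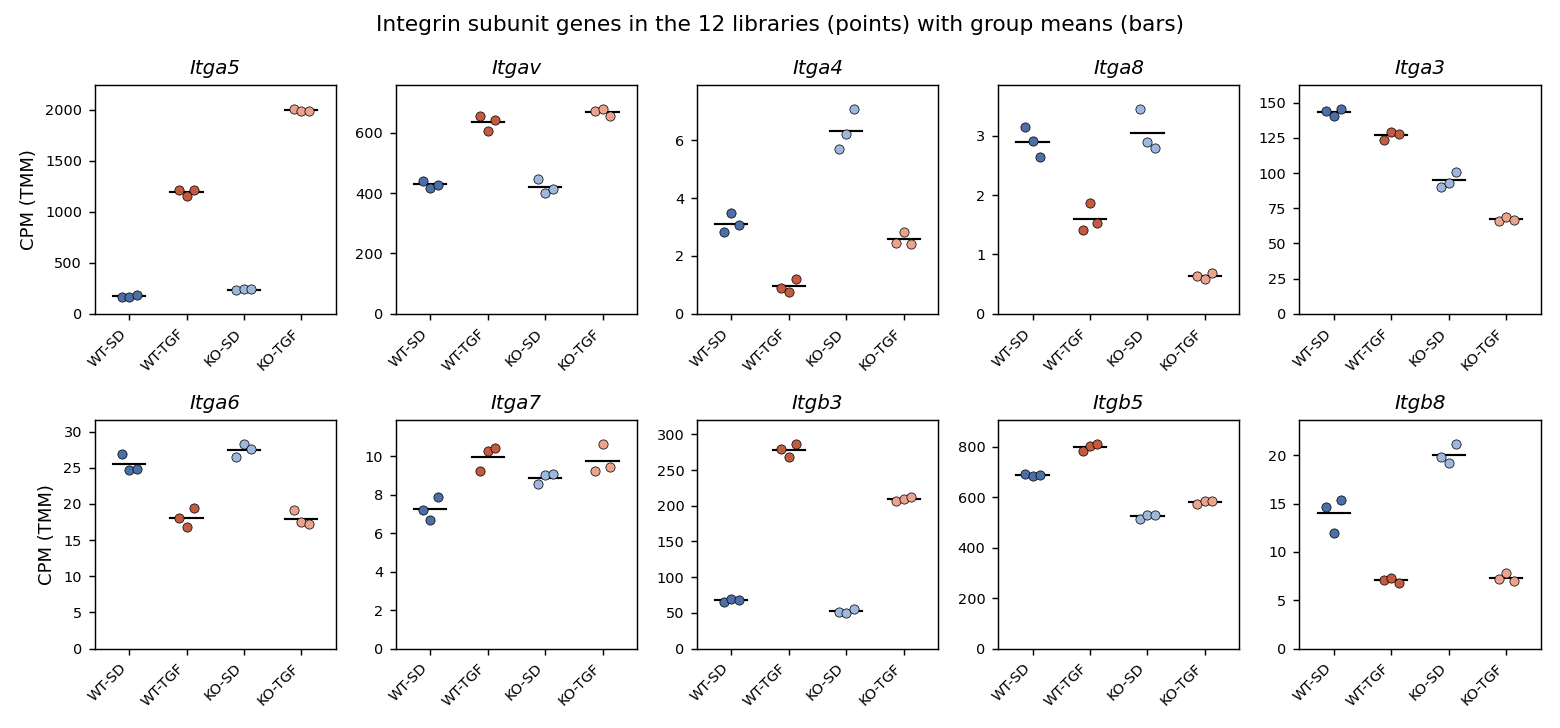
CPM of each integrin gene in the 12 libraries by group, on axes that differ between panels, with a line at each group mean. Itga5 and Itgb3 rise in every TGF library, Itgb8 falls, and the KO libraries lie below the WT libraries for Itga3, Itgb3 and Itgb5 in both conditions.

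Within the 3 β subunits, the share of Itgb3 in their summed RPKM was 5.53 ± 0.235% in WT-SD and 17.3 ± 0.490% in WT-TGF, and 5.57 ± 0.227% and 17.8 ± 0.115% in KO. Itgb5 held 93.9 ± 0.186%, 82.5 ± 0.485%, 93.3 ± 0.277% and 81.8 ± 0.0959% in the same order, and Itgb8 held from 0.235% in WT-TGF to 1.15% in KO-SD.  Among Itga4, Itga5, Itga8 and Itgav, Itga5 took 46.3 ± 1.37% of the summed RPKM in WT-SD, 80.3 ± 0.225% in WT-TGF, 54.5 ± 1.88% in KO-SD and 86.6 ± 0.211% in KO-TGF. The sum itself grew from 75.5 ± 1.96 to 301 ± 8.56 RPKM in WT and from 87.9 ± 1.19 to 466 ± 1.97 in KO. Shares of RNA do not give shares of receptors on the surface.

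**Figure D4:**
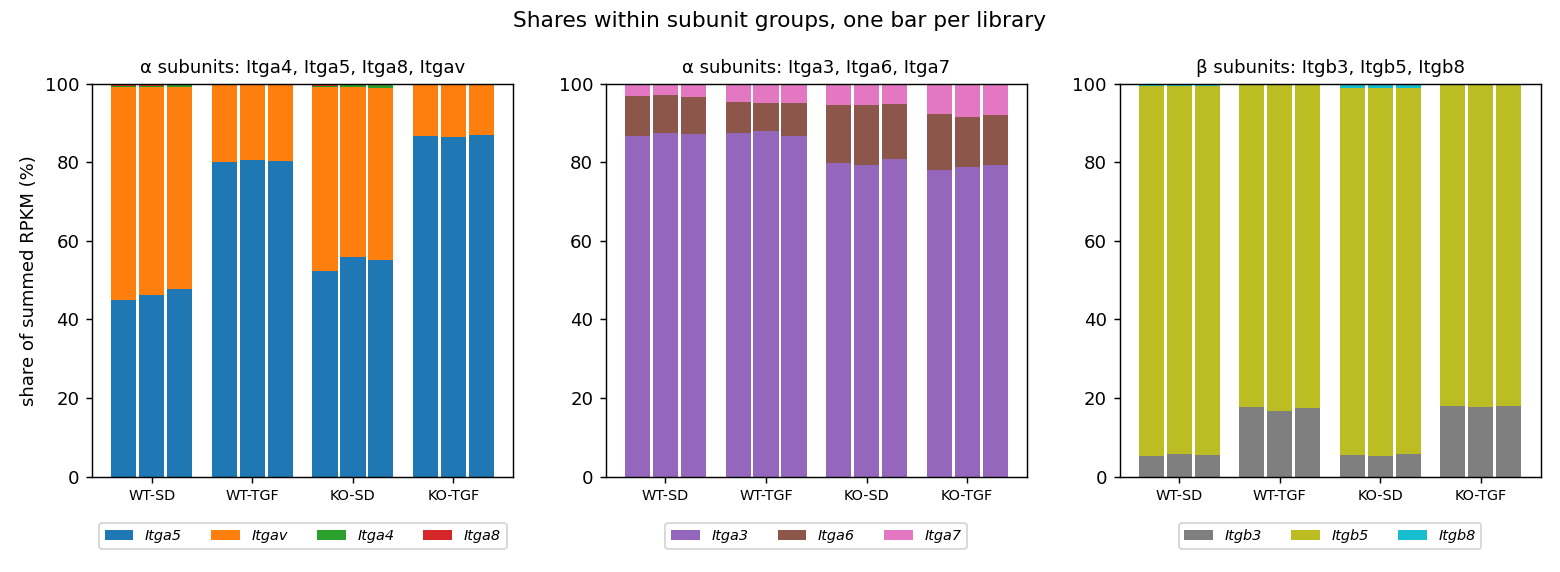
Share of each gene in the summed RPKM of its subunit group (percent), with a stacked bar for each of the 12 libraries. The Itga5 section grows from 46.3% to 80.3% in WT and from 54.5% to 86.6% in KO with TGF-β, and the Itgb3 section from 5.53% to 17.3% in WT and from 5.57% to 17.8% in KO.

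Itga4 and Itga8 were expressed at a low level. Itga4, which pairs with Itgb1 to bind VCAM-1 and fibronectin and is best known in leukocytes, had 2.82, 3.48 and 3.06 CPM in WT-SD and 0.898, 0.757 and 1.18 in WT-TGF, and 5.70, 6.23 and 7.06 in KO-SD and 2.46, 2.83 and 2.41 in KO-TGF. These values rest on 17 to 154 reads a library. The 4 groups were separate except that KO-TGF and WT-SD met at 2.82 and 2.83 CPM. Itga4 was lower with TGF-β in WT (log2 fold change -1.69, standard error 0.202, edgeR adjusted p = 2.68e-16) and in KO (-1.28, standard error 0.144, adjusted p = 2.12e-18). KO exceeded WT 2.07-fold in SD (edgeR adjusted p = 1.69e-14) and 2.75-fold under TGF-β (adjusted p = 1.60e-10). The macrophage markers summed to 41.5 to 45.7 CPM in WT-SD, 22.9 to 27.8 in WT-TGF, 9.33 to 11.8 in KO-SD and 3.04 to 3.69 in KO-TGF. All 5 of the 14 that were tested were lower in KO in both conditions, opposite to Itga4, and Adgre1, C1qa, C1qb, C1qc and Tyrobp were at 0 in KO. With TGF-β, 4 of these 5 tested markers were lower in WT and 3 in KO and none was higher, the direction of Itga4. Of all tested genes, 36.6% were lower with TGF-β in WT and 39.1% in KO. The shares lower in KO were 25.2% in SD and 27.9% under TGF-β. The fibroblast markers summed to 12.3 to 14.0 CPM in WT-SD, 3.97 to 4.72 in WT-TGF, 58.8 to 65.2 in KO-SD and 19.2 to 20.7 in KO-TGF. Most of each sum was Dcn, the only one above the RPKM limit. Dcn was lower with TGF-β in both genotypes and higher in KO in both conditions, as was Itga4. Pdgfra, at 3.55 ± 0.427, 0.646 ± 0.139, 1.97 ± 0.285 and 0.212 ± 0.0892 CPM in the same order, lay lower in KO. Dpt, at 0.0297, 0.217, 0.543 and 0.868 CPM, lay higher with TGF-β. Lum and Meox1 were at or near 0. The part of both lists in the Itga4 result was not tested.

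Itga8, which binds nephronectin and fibronectin with Itgb1, had 3.14, 2.91 and 2.65 CPM in WT-SD and 1.42, 1.87 and 1.53 in WT-TGF, and 3.45, 2.90 and 2.80 in KO-SD and 0.642, 0.588 and 0.682 in KO-TGF, or 11 to 75 reads a library. The SD groups overlapped and the KO-TGF libraries were the lowest of all. The log2 fold change with TGF-β was -0.81 in WT (standard error 0.184, edgeR adjusted p = 3.15e-05) and -2.23 in KO (standard error 0.236, adjusted p = 1.54e-20). The responses differed by -1.42 (standard error 0.317, edgeR adjusted p = 0.000101). Under TGF-β, KO was lower than WT by a log2 fold change of -1.32 (edgeR adjusted p = 6.09e-06), while in SD the value was 0.10 (standard error 0.160, adjusted p = 0.659).

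Itga3, the leading laminin-binding subunit of the set and in the kidney best known from podocytes, was lower with TGF-β and lower in KO. It had 144, 140.4 and 145 CPM in WT-SD and 124, 129 and 128 in WT-TGF, 90.3, 93.0 and 101 in KO-SD and 66.0, 68.6 and 66.7 in KO-TGF. No groups overlapped, and every KO library lay below every WT library. TGF-β lowered it by log2 fold changes of -0.18 in WT (edgeR adjusted p = 3.87e-05) and -0.50 in KO (adjusted p = 8.52e-13), a difference of -0.32 (standard error 0.0520, adjusted p = 1.45e-05). With library-size scaling the WT value was -0.33. KO against WT gave -0.60 in SD (edgeR adjusted p = 3.12e-15) and -0.92 under TGF-β (adjusted p = 3.60e-19). The 6 podocyte markers summed to 460.3 to 468 CPM in WT-SD and 455 to 474 in WT-TGF, against 218 to 227 in KO-SD and 205 to 219.5 in KO-TGF. The 4 tested were lower in KO in both conditions, Podxl at 98.1 ± 2.75 CPM in WT-SD and 32.8 ± 0.375 in KO-SD, and Nphs1, which encodes nephrin of the podocyte slit diaphragm, was at or near 0 in all groups. Of all tested genes, 25.2% were lower in KO in SD and 27.9% under TGF-β. The part of the podocyte markers in the Itga3 result was not tested.

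Itga6, the laminin-binding subunit known from epithelia, had 26.8, 24.7 and 24.9 CPM in WT-SD and 18.0, 16.8 and 19.4 in WT-TGF, 26.4, 28.2 and 27.6 in KO-SD and 19.2, 17.5 and 17.2 in KO-TGF. TGF libraries lay below SD libraries in both genotypes, while the genotypes overlapped in both conditions. The log2 fold changes with TGF-β were -0.50 in WT (edgeR adjusted p = 2.70e-08) and -0.61 in KO (adjusted p = 5.49e-10). KO against WT gave 0.11 (standard error 0.0578) in SD and -0.01 (standard error 0.0683) under TGF-β, neither called. The 9 tubular epithelial markers summed to 281 to 289 CPM in WT-SD, 129 to 140.4 in WT-TGF, 164 to 178 in KO-SD and 69.8 to 73.1 in KO-TGF. Both that were tested, Pax8 at 241 ± 3.13 CPM in WT-SD and Lrp2 at 42.7 ± 1.56, were lower with TGF-β in both genotypes and lower in KO in both conditions, while Umod and Slc34a1 were at 0 in every group. Pax8 and Lrp2 made up most of each sum. Slc12a1 ran the other way, at 0.358 ± 0.117, 0.842 ± 0.0978, 1.25 ± 0.353 and 3.05 ± 0.232 CPM in the same order of groups. Cdh1 and Epcam had group means of at most 0.311 CPM. The part of these markers in the Itga6 result was not tested.

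Itga7, the laminin-binding subunit of muscle, had 7.196, 6.69 and 7.89 CPM in WT-SD and 9.21, 10.3 and 10.4 in WT-TGF, 8.54, 9.03 and 9.08 in KO-SD and 9.25, 10.6 and 9.44 in KO-TGF. WT-SD was the lowest group, and the other 3 lay close together. TGF-β raised it in WT (log2 fold change 0.46, standard error 0.0919, edgeR adjusted p = 5.33e-05), and in KO the value was 0.14 (standard error 0.0916, adjusted p = 0.176), with a negative sign under library-size scaling, which also brought the WT value to 0.30. The difference between these responses did not pass the test (-0.32, standard error 0.130, edgeR adjusted p = 0.0689). It was called with library-size scaling (-0.37, edgeR adjusted p = 0.0309). It was also called without WT-SD library 3 (-0.39, adjusted p = 0.0408) or without WT-TGF library 1 (-0.38, adjusted p = 0.0407). In SD the KO exceeded WT by a log2 fold change of 0.29 (edgeR adjusted p = 0.00903), a call lost without WT-SD library 2 (0.24, adjusted p = 0.0602). Of the summed RPKM of the 3 laminin-binding subunits, Itga3 held 87.1 ± 0.314% in WT-SD, 87.3 ± 0.584% in WT-TGF, 80.0 ± 0.792% in KO-SD and 78.6 ± 0.629% in KO-TGF, and the sum fell from 28.8 ± 0.574 RPKM in WT-SD to 14.9 ± 0.279 in KO-TGF.

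The shared partner of most of these α subunits, Itgb1, had 1947 ± 39.8 CPM in WT-SD, 4512 ± 115 in WT-TGF, 2356 ± 73.8 in KO-SD and 5369 ± 10.4 in KO-TGF. TGF-β raised it by log2 fold changes of 1.21 in WT (edgeR adjusted p = 1.83e-28) and 1.19 in KO (adjusted p = 2.16e-28), less than Itga5 and more than Itgav. Of 16 other integrin subunits, 5 were tested, and TGF-β raised 3 and lowered 1 in WT and raised 3 and lowered 2 in KO. Of all tested genes, 35.9% were higher and 36.6% lower in WT, and 35% higher and 39.1% lower in KO. Itga11, a collagen-binding subunit, gave log2 fold changes of 1.70 in WT and 1.14 in KO with TGF-β, while Itga1, another of that kind, gave -1.47 and -1.78, all 4 called. In KO against WT, 1 of the 5 was higher and 2 lower in SD, where 30.6% and 25.2% of all tested genes were. Under TGF-β, 1 was higher and 4 lower, where 27.3% and 27.9% were. Itgb6, another β subunit that binds latent TGF-β, was at or below 0.0608 CPM in every group mean.

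For the lists that follow, the shares over all tested genes were 35.9% higher and 36.6% lower with TGF-β in WT, 35% and 39.1% in KO, 30.6% and 25.2% for KO against WT in SD, and 27.3% and 27.9% under TGF-β. Of 12 tested genes for fibronectin and other integrin ligands, TGF-β raised 8 and lowered 3 in WT and raised 9 and lowered 2 in KO, and KO exceeded WT for 9 in SD and 8 under TGF-β, with 3 and 2 lower. Fn1, the fibronectin gene and the ligand of Itga5, named after its values were seen, had 14126 ± 218 CPM in WT-SD, 24413 ± 193 in WT-TGF, 23270.5 ± 386 in KO-SD and 32816 ± 195 in KO-TGF, the same order of KO above WT as Itga5. Its response to TGF-β, however, was smaller in KO (-0.29 on the log2 scale, edgeR adjusted p = 1.05e-11). Vcam1, a ligand of Itga4, gave log2 fold changes of -2.40 in WT and -2.66 in KO with TGF-β. Npnt, which encodes the Itga8 ligand nephronectin, had 186 ± 4.23 CPM in WT-SD and 99.5 ± 3.19 in WT-TGF but 158 ± 2.17 and 162 ± 2.70 in KO, a difference of responses of 0.93 (edgeR adjusted p = 2.74e-17). That sign is the reverse of the one for Itga8.

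Of 5 tested laminin chains, TGF-β raised 2 and lowered 2 in WT and raised 1 and lowered 4 in KO. Lama1, an α chain, rose by 1.33 and 1.54 on the log2 scale to 20.4 ± 2.19 and 25.2 ± 1.19 CPM, and Lamb2, the β chain of the mature glomerular basement membrane, gave -0.28 and -0.24. Lamb2 was also lower in KO in SD (-0.47, edgeR adjusted p = 5.29e-15) and under TGF-β (-0.43, adjusted p = 9.08e-14), as was Itga3. Among the 5 chains, KO exceeded WT for 1 in SD and 2 under TGF-β, with 2 and 3 lower.

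Of 8 tested latent TGF-β genes, TGF-β raised 7 and lowered 1 in WT and raised 6 and lowered 2 in KO, and KO exceeded WT for 7 in SD and 5 under TGF-β, with 1 and 2 lower. Tgfb1 had log2 rises of 2.25 in WT and 2.24 in KO (edgeR adjusted p = 3.00e-32 and 2.16e-32), and Ltbp1, which tethers latent TGF-β to the matrix, was higher in KO by 1.19 in SD. Of 18 tested activators and adaptors, TGF-β raised 9 and lowered 3 in WT and raised 13 and lowered 2 in KO, and KO exceeded WT for 11 in SD and 13 under TGF-β, with 4 and 1 lower. Tln2, a talin that activates β subunits, rose by 1.76 and 1.75 on the log2 scale, Ilk, the kinase-like adaptor at β tails, by 0.61 and 0.83, and Parvb, its parvin partner, was higher in KO by 1.11 in SD and 1.37 under TGF-β. The list medians of log2 fold change lay between -0.10 and 0.69 in the 2 TGF-β comparisons, beside -0.01 and -0.02 over all genes. The response to TGF-β differed between the genotypes for 3 of the 5 other subunits (all 3 lower in KO), 10 of 12 ligands (2 higher and 8 lower), 2 of 5 laminin chains (1 and 1), 7 of 8 latent TGF-β genes (3 and 4) and 10 of 18 activators and adaptors (8 and 2), against 25.4% of all tested genes.

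Other genes followed single members closely over the 12 libraries, as Pearson's r of log2 CPM, over libraries that fall into 4 groups and share TMM scaling. Nearest to Itga5 were Tatdn2 and Pmaip1 (both r = 0.999), to Itgb3 Creb3l2 and Nuak2 (both 0.998), to Itga3 Lmtk3 (0.998) and Cdo1 (0.994), and to Itgav Cdk17 (0.996) and Crispld2 (0.994). Itgb5 stood nearest to Cdkn1a (0.995) and Clcf1 (0.994), Itgb8 to Rcbtb2 (0.993) and Hp (0.991), and Itga6 to Rbmx (0.982) and C4bp (0.980). The lowest best values were those of Itga7, with Fam131b and Llgl1 (both 0.935). No other gene of the set stood among these nearest genes.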

How the data were processed

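RNA-seq libraries were prepared from total RNA of 12 samples labelled WT or KO and SD or TGF, and the labels put 3 in each group. The deposited values were raw counts of reads per gene. To make them, the authors mapped reads with TopHat (mm10) and assigned them to RefSeq genes by strand with HTSeq. Reads assigned to no gene took 10.3 to 15.4% of each library and reads not aligned uniquely took 11.2 to 11.7%. Both stayed out of library sizes. Library sizes are given with the results, and the genes with the fewest reads, Itga4 and Itga8, carry the largest counting error.

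Counts were fitted with edgeR 4.0.16 (R 4.3.3, limma 3.58.1) by the quasi-likelihood test: TMM scaling, genes with RPKM >1 in at least 1 library (GENCODE exon lengths), 1 mean per group over all 12 libraries, and calls at an FDR of 5% after Benjamini-Hochberg adjustment. Itga4 and Itga8 were read from a fit without the limit. Sequences and gene positions are from RefSeq (GRCm38.p6). DESeq2 1.42.0, 2 other scalings, 2 other filters, a replicate block and leaving out each library were tried.

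The text names the 10 members, the 2 genes nearest in pattern to each tested member, up to 3 genes per list and comparison, and the marker lists for mesangial, macrophage, podocyte, endothelial, tubular epithelial and fibroblast cells. Members and lists were chosen with earlier results of these data known, and the shares among α subunits were added after the values were seen. A marker gene of the podocyte list is not reported here.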

Additional observations from a re-analysis of the deposited data

Results flagged for a closer look

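Among these 10 genes, 4 differed between the genotypes in their log2 response to TGF-β (response in KO minus response in WT, tested as the interaction in edgeR with Benjamini-Hochberg adjustment), and these differences were picked out for a closer look. Itga5 rose by 0.29 more in KO (adjusted p = 8.82e-07). Itga3 responded by -0.32 (adjusted p = 1.45e-05) and Itgb8 by -0.47 (adjusted p = 0.00848), both falling further in KO. Itga8, from 11 to 75 reads a library, differed by -1.42 (adjusted p = 0.000101). All 4 kept their direction and their call under each of the 18 alternatives tried. Groups of 3 libraries were not tested for values far from the others.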

How the results depend on the processing

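Of 940 values of single genes under alternatives, 901 kept their direction and side of the threshold, 19 changed sign, 12 gained a call and 8 lost it. Scaling by library size alone moved the median log2 fold change of all genes by -0.15 with TGF-β in WT, -0.20 in KO, -0.07 for KO against WT in SD and -0.12 under TGF-β, and the higher and lower calls from 4095 and 4170 to 2638 and 5964, from 3987 and 4456 to 2291 and 6628, from 3492 and 2879 to 2436 and 4133, and from 3113 and 3181 to 1639 and 5350. It turned the KO responses of Itga7 to -0.064 and Itgb5 to -0.058, the KO difference of Itga8 in SD to -0.0011 and those of Itgav and Itgb8 under TGF-β to -0.047 and -0.066. It also raised the members with a lower response in KO from 2 to 4. Members higher in KO under TGF-β fell from 2 to 1 with library-size or upper-quartile scaling and ranged from 1 to 2 with a library left out, through Itgav. Members with a higher response in KO ranged from 1 to 2 with a library left out. A replicate block gave 2 such members (Itgav, adjusted p = 0.0255 in edgeR). Deviations of libraries with the same replicate number correlated at -0.03 to 0.086 over 18 pairs, and those with other numbers at -0.092 to 0.042. These ranges overlap and do not settle whether libraries were paired by number. Signs also changed for uncalled values near 0. Itgav in SD became 0.0041 without a filter and ranged from -0.072 to 0.0059 with a library left out. Itga6 in KO against WT under TGF-β became 0.0021 with a CPM filter, 0.0066 without a filter, 0.0077 in DESeq2, and ranged from -0.060 to 0.046 with a library left out. With a library left out, Itga7 there ranged from -0.087 to 0.026 and the Itgb3 interaction from -0.066 to 0.010. The cause of these changes was not tested. Among calls gained, Itga6 in SD was called without a filter and Itgav in SD with library-size scaling or without KO-SD 1. Depth limits Itga4 and Itga8 most.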
